A study of Homo sapiens with 24 samples.

Results

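The 10 genes described here encode proteins of the nuclear lamina and its membrane (*LMNB1*, *LMNB2*, *LMNA*, *LBR*, *EMD*, *TMPO* and *BANF1*) and the heterochromatin protein 1 (HP1) family (*CBX1*, *CBX3* and *CBX5*). They were chosen by name, and they were 10 of 25702 gene identifiers in the RNA-seq counts. Each of the 10 passed the filter on low counts, which left 13356 genes. The RNA came from IMR90 cells, a line of normal human lung fibroblasts, at passage 23 to 28. Every sample carried a retroviral ER:HRAS(G12V) construct, in which oncogenic RAS is fused to the oestrogen receptor and is switched on by 4-hydroxytamoxifen (4OHT). Growing samples carried an MSCV control vector and shHMGA1 samples carried MSCV miR30 shHMGA1, a hairpin against *HMGA1*, and neither was given the drug. RAS-induced senescence (RIS) samples carried the control vector and RIS+shHMGA1 samples the hairpin, and both had 4OHT for 6 days. There were 4 groups of 6 replicates. Every 4OHT-treated sample carried ER:HRAS(G12V), so the drug and RAS cannot be told apart, and with 1 hairpin its construct and the loss of *HMGA1* cannot be told apart either.

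The lamina is a meshwork of lamin filaments under the inner nuclear membrane, to which part of the heterochromatin is tethered. A-type lamins come from *LMNA* and B-type lamins from *LMNB1* and *LMNB2*. Membrane proteins such as the lamin B receptor (*LBR*), emerin (*EMD*) and the LAP2 proteins (*TMPO*) link the lamina to chromatin, in part through the small DNA-binding protein barrier-to-autointegration factor (*BANF1*). HP1 proteins bind histone H3 methylated at lysine 9, and HP1 also binds the lamin B receptor. *CBX5* encodes HP1α, *CBX1* HP1β and *CBX3* HP1γ. Loss of lamin B1 is a widely used marker of senescence, and senescent fibroblasts with active RAS gather heterochromatin into foci.

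Total counts per sample lay between 8698070 and 23103424. Levels are given as CPM, which are counts scaled to library size. *HMGA1* had 639 to 861 CPM in the 12 control vector samples and 54.4 to 262 CPM in the 12 hairpin samples. In shHMGA1 samples its level was 98.7 to 143 CPM in replicates 1 to 4, and 58.1 and 54.4 CPM in replicates 5 and 6. In RIS+shHMGA1 it was 197 to 262 CPM in replicates 1 to 4, and 60.0 and 75.1 CPM in replicates 5 and 6. Between these groups its log2 fold change was 0.73 (SE 0.29, edgeR quasi-likelihood test, adjusted p = 0.033), which did not pass the thresholds given below. What this difference means for the results was not tested. A pair of libraries stood apart from their labelled groups. The root mean square distance of growing replicate 4, over the log2 CPM of all tested genes, was 1.32 to the rest of its own group. It was 0.5 to RIS without replicate 2 and 0.33 to RIS+shHMGA1. *HMGA1* in growing replicate 4 was at 667 CPM, in the range of the control vector samples. The distance of RIS replicate 2 was 1.08 from the other RIS samples and 0.29 from growing ones. The other 22 libraries lay at 0.24 to 0.51 from their own groups. Both libraries were kept under their labels. Whether the labels of the pair were exchanged was not tested, and it bears on every value of growing and RIS groups with all samples, so comparisons that hold these libraries are given with and without them. Fibroblast markers were present throughout (*VIM* 3170 to 5700 CPM). Of the epithelial markers *CDH1* had 0 counts in 19 samples, but *KRT18* lay at 26.4 to 49.1 CPM. Of the haematopoietic markers *CD3E* had 0 counts in 23 samples, but *CD68* lay at 40.2 to 105 CPM. The summed level of the 10 fibroblast markers was 14200 to 20200 CPM in shHMGA1 and 4480 to 5840 CPM in RIS+shHMGA1 samples. Of these 10 genes, 9 were called lower there at the thresholds given below, beside 19.5% of all genes. The part of this fall in the results below was not tested. Of 5 endothelial markers the sum was 70.4 to 125 CPM and then 15.4 to 23.3 CPM, nearly all of it *TEK*, with *PECAM1* at 1.27 CPM or less and *CDH5* at 0.423 CPM or less in every sample. The sums of 6 epithelial (36.6 to 47.3 and 40.0 to 45.8 CPM) and 5 haematopoietic markers (42.5 to 81.6 and 55.4 to 74.4 CPM) overlapped. Most of the epithelial sum was *KRT18* and nearly all of the haematopoietic sum was *CD68*. In bulk samples fewer cells of a type and less RNA per cell cannot be told apart.

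Promoters of all 10 genes were taken from RefSeq (GRCh38.p14, not the build used for counting) as windows of 300 bases around each transcription start, and 3 motifs of cell cycle promoters were searched on both strands, none of which lies within another. E2F sites (TTTCCCGC, TTTGGCGC or TTTCGCGC) were found for 2 of the 10 genes, *LMNA* and *CBX3*, and for 3.3% of all 27305 genes. A gene was counted once if any window of its starts held the motif, and the 10 genes had 16 windows. The NF-Y site CCAAT was found for 5 of the 10 (*LMNB1* at its second start, *LMNA*, *EMD*, *TMPO* and *CBX5*) and for 39.7% of genes. The cell cycle homology region TTTGAA was found for 1, *LMNB2*, and for 18.2% of genes. The sequences below run from 150 bases before to 20 bases after the most upstream start. They are shown for the genes with the lowest and the second lowest fold change with 4OHT in hairpin samples and for the one with the highest, and capitals mark the motifs. *LMNB1* lies at chr5:126776473-126776642, *TMPO* at chr12:98515423-98515592 and *CBX3* at chr7:26201293-26201462, all on the plus strand.
LMNB1: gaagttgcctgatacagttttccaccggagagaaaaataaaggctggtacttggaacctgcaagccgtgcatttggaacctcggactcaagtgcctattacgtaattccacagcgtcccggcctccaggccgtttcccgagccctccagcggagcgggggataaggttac
TMPO: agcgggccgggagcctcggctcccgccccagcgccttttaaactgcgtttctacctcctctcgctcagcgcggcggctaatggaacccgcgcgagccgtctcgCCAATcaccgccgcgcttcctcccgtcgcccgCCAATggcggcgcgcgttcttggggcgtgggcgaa
CBX3: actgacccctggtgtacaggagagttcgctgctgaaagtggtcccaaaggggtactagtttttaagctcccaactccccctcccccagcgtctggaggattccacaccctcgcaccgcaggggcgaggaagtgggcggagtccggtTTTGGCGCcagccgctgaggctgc
The *LMNB1* window holds none of the 3 motifs. The *TMPO* window holds 2 CCAAT boxes, and in *CBX3* the site TTTGGCGC begins 4 bases before the start. A match is a description of the letters and not of binding.

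The effect of 4OHT is first given in the samples with hairpin, which hold neither of the libraries that stood apart. The SE and adjusted p still come from the fit of all 24 samples, whose spread includes them. In RIS+shHMGA1 against shHMGA1, 7 of the 10 genes were lower, 2 were higher and 1 did not pass the thresholds (an FDR below 0.01 with a log2 fold change beyond ±0.58). Over all genes 19.6% were higher and 19.5% lower. The median log2 fold change of the 10 genes was −1.25, beside −0.02 over all genes tested. The ranges of the 6 samples did not overlap for 9 of the 10 genes, beside 43.4% of all genes. The lamins, *LBR*, *TMPO*, *CBX1* and *CBX5* made up the lower side, and *BANF1* and *CBX3* the higher.

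**Figure D1:**
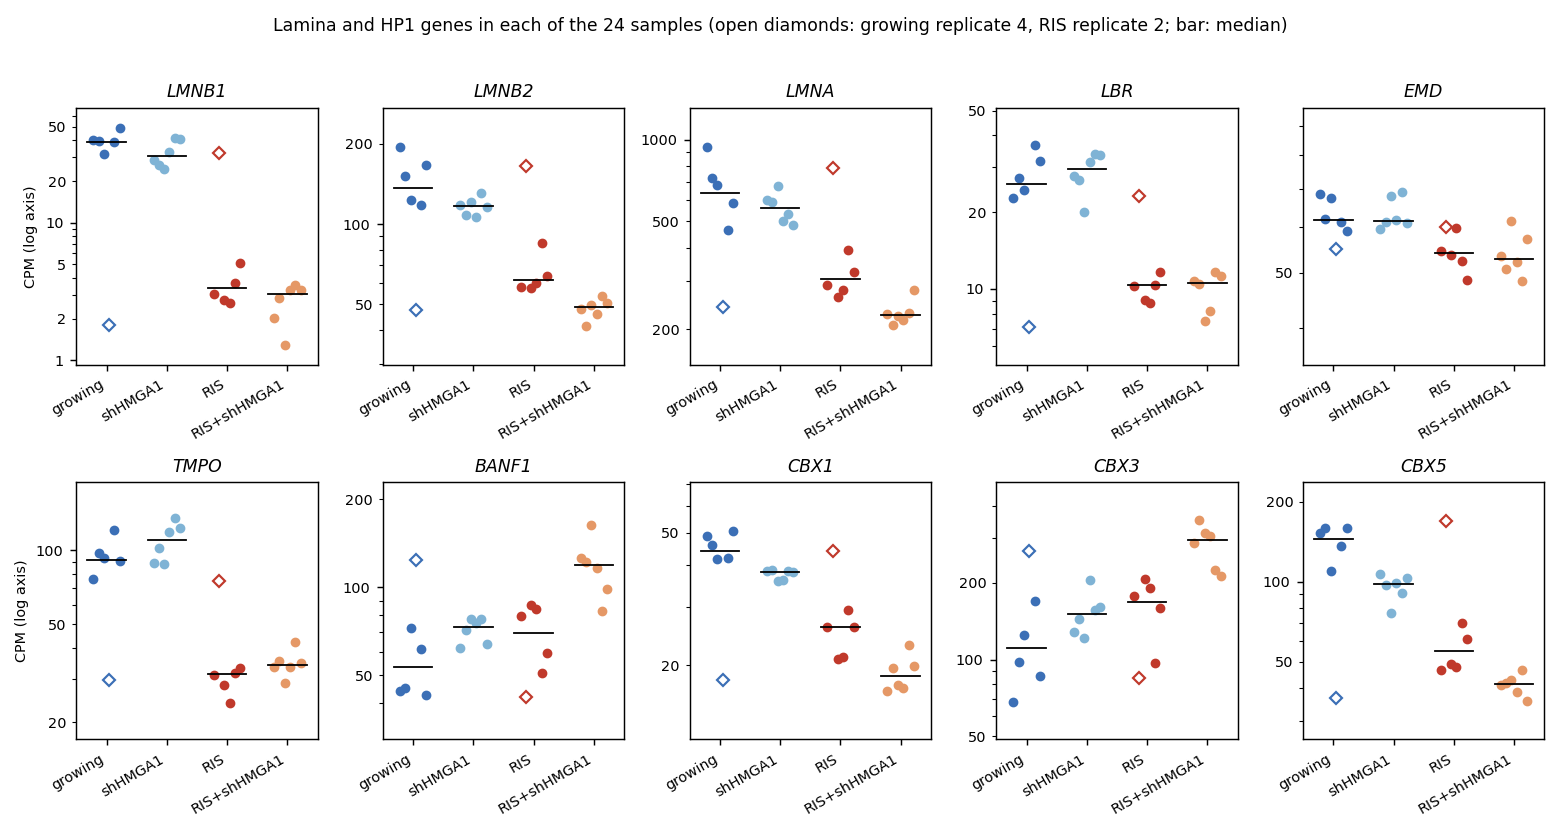
CPM (log axis) of the 10 genes in each of the 24 samples, by group, with bars at the group medians and open diamonds for growing replicate 4 and RIS replicate 2. In 9 of 10 panels the RIS+shHMGA1 samples do not overlap the shHMGA1 samples, and the diamonds lie away from the rest of their groups in most panels.

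*LMNB1*, the gene of lamin B1 (chr5:126112315-126172712 in GRCh37, plus strand, 11 exons in the canonical transcript), had the steepest fall of the 10. It lay at 24.8, 30.6 and 41.5 CPM (lowest, median, highest) in shHMGA1 and at 1.3, 3.03 and 3.51 CPM in RIS+shHMGA1. Every 4OHT sample was thus far under every sample without it. The log2 fold change was −3.59 (SE 0.64, edgeR quasi-likelihood test, adjusted p = 0.00027), a 12-fold lower level. Without the pair of libraries in the fit the SE was 0.20 and the adjusted p 2.8e-13, and the same 9 of the 10 genes were called. The lowest count in a RIS+shHMGA1 sample was 15, so the lower end of the range also carries counting error. *LMNB2*, the gene of lamin B2 (chr19:2427636-2456957, minus strand), fell less, from 106, 117 and 131 CPM to 41.6, 49.0 and 54.0 CPM. Its groups did not overlap, and its log2 fold change was −1.27 (SE 0.26, adjusted p = 0.00053). *LMNA*, which encodes lamins A and C (chr1:156052364-156109872, plus strand), went from 484, 560 and 673 CPM to 207, 225 and 278 CPM, again without overlap. Its log2 fold change was −1.29 (SE 0.26, adjusted p = 5e-04), close to that of *LMNB2*. The *LMNA* start lies 108 bases from that of *MEX3A* on the other strand, which also fell, by 0.82 on the log2 scale (SE 0.21, adjusted p = 0.0028).

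Among the membrane-linked genes, *TMPO* (chr12:98909357-98944129, plus strand) lay at 88.1, 111 and 135 CPM in shHMGA1 and at 28.8, 34.2 and 42.2 CPM in RIS+shHMGA1. The groups lay well apart, and the log2 fold change was −1.66 (SE 0.27, adjusted p = 2e-04). An antisense gene, *TMPO-AS1*, was counted at 2.84 to 19.8 CPM, and since the strand setting of the counting is not given in the sources used here, reads of the overlapping pair may have been shared. *LBR* (chr1:225589204-225616627, minus strand) lay at 20, 29.6 and 33.8 CPM in shHMGA1 and at 7.47, 10.6 and 11.7 CPM in RIS+shHMGA1. It fell without overlap, by 1.53 on the log2 scale (SE 0.28, adjusted p = 0.00028). *EMD* (chrX:153607633-153609934, plus strand) was the gene that did not pass, with 59.5, 61.5 and 69.1 CPM against 48.4, 52.8 and 61.4 CPM. Its ranges overlapped, and its log2 fold change was −0.24 (SE 0.08, adjusted p = 0.016), with an interval of −0.40 to −0.07 at 2 SE either side. That difference passed an FDR of 0.05 without a fold threshold, but it is smaller than that of any other gene of the group.

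*BANF1* and *CBX3* went the other way. *BANF1* (chr11:65769699-65771620, plus strand) lay at 61.7, 73.3 and 77.7 CPM in shHMGA1 and at 83.0, 119 and 163 CPM in RIS+shHMGA1, with no overlap. Its log2 fold change was 0.73 (SE 0.23, adjusted p = 0.0097), 1.66-fold. *CBX3* (chr7:26240782-26253227, plus strand) lay at 122, 150 and 206 CPM and then at 213, 296 and 354 CPM, again with no overlap. Its log2 fold change was 0.89 (SE 0.27, adjusted p = 0.0077), 1.85-fold. Both calls were close to the threshold. They were lost when replicate number 1, 2, 3, 5 or 6 was left out of all groups, with adjusted p up to 0.044 for *BANF1* and 0.039 for *CBX3*, whereas without growing replicate 4 and RIS replicate 2 the adjusted p was 3e-04 for *BANF1* and 0.00033 for *CBX3*. Both genes have near-identical copies elsewhere in the genome, so that their reads may have been dropped or split. The copies with a row of their own, *BANF1P3* and *CBX3P2*, had at most 3 and 4 counts in a sample, and RefSeq names 4 further pseudogenes of *BANF1* and 9 of *CBX3* that were not analysed here, as well as 5 of *CBX1*, 2 of *TMPO* and 1 of *CBX5*.

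The other HP1 genes fell. *CBX5* (chr12:54624726-54673917, minus strand) lay at 76.4, 98.3 and 107 CPM in shHMGA1 and at 35.8, 41.3 and 46.8 CPM in RIS+shHMGA1. Its ranges were separate, and its log2 fold change was −1.22 (SE 0.30, adjusted p = 0.0018). That call was lost without replicate number 6 (adjusted p = 0.011). *CBX1* (chr17:46147414-46178840, minus strand) lay at 35.7, 38.2 and 38.6 CPM and then at 16.8, 18.6 and 23.0 CPM. The shHMGA1 samples of *CBX1* lay very close together, and the log2 fold change was −0.98 (SE 0.19, adjusted p = 0.00039), 1.97-fold lower. The 3 HP1 genes, which encode proteins of like build, thus did not move together.

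In RIS against growing, the same drug effect in cells with control vector, none of the 10 genes passed the thresholds in edgeR with all 24 samples, and neither did any of the 13356 genes (0%). The smallest adjusted p over all genes was 0.014. DESeq2 called 3 of the 10 lower (*LMNB1*, *LBR* and *TMPO*), beside 5.72% of all genes in either direction. At an unadjusted p under 0.05 there were 8 of the 10 genes and 4407 genes in all. For *LMNB1*, growing samples lay at 1.80 (replicate 4), 31.8, 38.6, 39.2, 39.7 and 49.0 CPM. RIS samples lay at 2.62, 2.73, 3.06, 3.64, 5.11 and 32.4 CPM (replicate 2). Growing replicate 4 thus had a level as in 4OHT samples and RIS replicate 2 a level as in growing ones. The log2 fold change of *LMNB1* over all samples was −2.01 (SE 0.58, adjusted p = 0.027). The 10 genes' ranges overlapped throughout, and over all genes the ranges did not overlap for 0.367%.

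Without growing replicate 4 and RIS replicate 2, RIS against growing had 7 of the 10 genes lower, 0 higher and 3 not called, beside 20.5% of all genes lower and 19.2% higher. Ranges did not overlap for the same 7 genes, beside 35.2% of all genes. *LMNB1* then fell by 3.52 on the log2 scale (SE 0.21, adjusted p = 1.2e-12), 11.5-fold. *TMPO* (−1.69), *LBR* (−1.5), *CBX5* (−1.38), *LMNB2* (−1.22), *LMNA* (−1.13) and *CBX1* (−0.89) followed, each with an adjusted p of 7.4e-07 or less. These are the 7 genes that were lower in the hairpin samples. *EMD* had a log2 fold change of −0.24 (adjusted p = 0.016), *BANF1* of 0.44 (adjusted p = 0.031) and *CBX3* of 0.60 (adjusted p = 0.017), and these 3 were not called. In growing samples without replicate 4, *CBX3* ranged from 68.1 to 170 CPM and in RIS samples without replicate 2 from 96.7 to 207 CPM, so its groups overlapped. Leaving out growing replicate 4 alone also gave 7 calls, beside 25.4% of all genes called, and so did leaving out RIS replicate 2 alone, beside 19.2%.

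**Figure D2:**
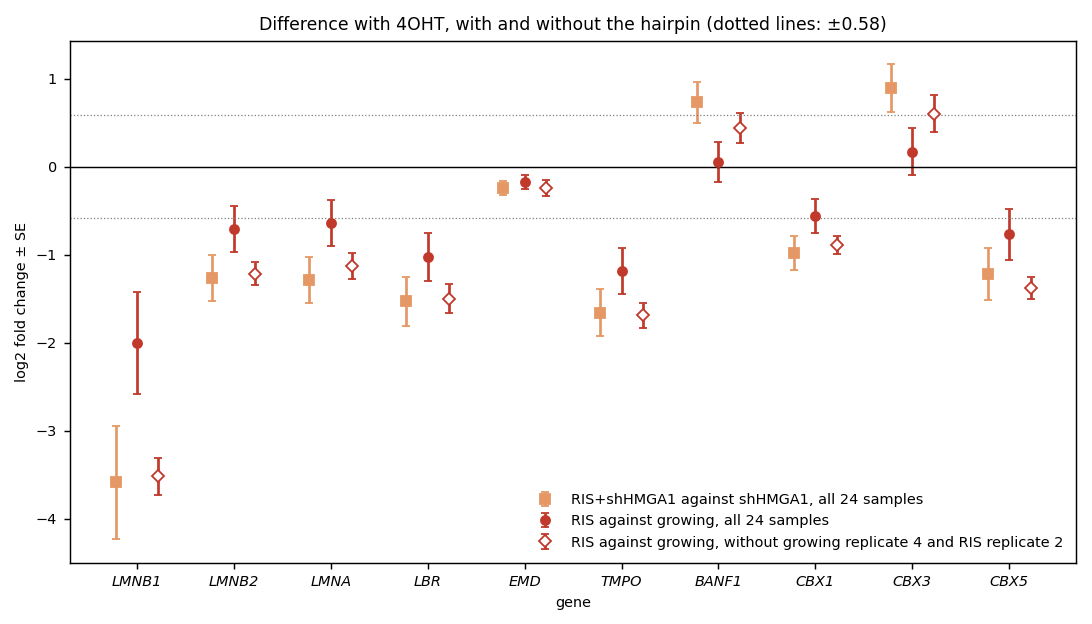
Log2 fold changes with 4OHT (y axis, points with bars of 1 SE) of the 10 genes, for RIS+shHMGA1 against shHMGA1 (squares), RIS against growing with all samples (filled circles) and without growing replicate 4 and RIS replicate 2 (open diamonds). Squares and diamonds lie near each other for *LMNB1* (−3.59 and −3.52) and *TMPO* (−1.66 and −1.69), and the circles lie nearer to 0.

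RIS+shHMGA1 against growing shares its control samples with the comparison above. It had 7 of the 10 genes lower and 2 higher, beside 23.9% of all genes lower and 22% higher. Without the pair of libraries the counts for the 10 genes did not change, beside 28.5% lower and 28.3% higher. *LMNB1* had a log2 fold change of −3.63 (SE 0.64, adjusted p = 2e-04), *CBX5* of −1.61 (SE 0.30, adjusted p = 0.00026) and *CBX3* of 1.06 (SE 0.27, adjusted p = 0.002). *EMD* was again the gene that was not called (−0.21, adjusted p = 0.028). Without the pair of libraries the log2 fold changes were −3.88 (SE 0.21, adjusted p = 7.6e-14) for *LMNB1*, −1.8 (SE 0.12, adjusted p = 4.4e-12) for *CBX5*, 1.37 (SE 0.21, adjusted p = 2.7e-06) for *CBX3* and −0.24 (adjusted p = 0.01) for *EMD*.

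The hairpin without 4OHT was compared in shHMGA1 against growing. With all samples none of the 10 genes was called by edgeR or DESeq2, and none had an unadjusted p under 0.05. Over all genes edgeR called 36 (0.27%) and DESeq2 0.691%, and 1759 genes had an unadjusted p under 0.05 in edgeR. The fold change with the widest interval was that of *LMNB1* (log2 −0.04, 2 SE interval −1.13 to 1.04). Without the pair of libraries its interval was −0.63 to 0.05. *CBX5* was then called lower, beside 1.39% of genes lower and 1.21% higher. Its level was 110 to 159 CPM in the remaining growing samples and 76.4 to 107 CPM in shHMGA1, with a log2 fold change of −0.58 (SE 0.12, adjusted p = 0.0032) that lay at the fold threshold. It was not called without growing replicate 4 alone (−0.58) or with the replicate number as a block and without the pair (−0.56). DESeq2 without these libraries called none of the 10, beside 4.92% of all genes. In edgeR without the pair *TMPO* (0.19, 2 SE interval −0.06 to 0.45) and *LBR* (0.02, −0.26 to 0.31) were not called, and neither were the other 7. At an unadjusted p under 0.05 there were then 5 of the 10 genes, beside 5221 of 13416 genes. Besides *CBX5* these were *LMNB2* (−0.37, adjusted p = 0.037), *CBX1* (−0.29, adjusted p = 0.042), *BANF1* (0.42, adjusted p = 0.069) and *CBX3* (0.48, adjusted p = 0.087).

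With 4OHT, *BANF1* and *CBX3* were the genes higher with the hairpin, in some of the fits. In RIS+shHMGA1 against RIS, edgeR on all samples called none of the 10 genes, beside 1.77% of all genes higher and 0.786% lower. DESeq2 called both *BANF1* and *CBX3* higher, beside 12.2% of all genes called. At an unadjusted p under 0.05 in edgeR there were 7 of the 10 genes, beside 6647 of all 13356 genes. Without the pair of libraries *BANF1* (log2 0.71, SE 0.17, adjusted p = 0.0035) and *CBX3* (0.77, SE 0.21, adjusted p = 0.0069) were called higher in edgeR, beside 10% of all genes higher and 2.5% lower. *CBX3* lay at 84.9 to 207 CPM in RIS and at 213 to 354 CPM in RIS+shHMGA1, without overlap. *BANF1* lay at 42.2 to 87.0 CPM and at 83.0 to 163 CPM, with a small overlap. Growing replicate 4, a control vector library near the 4OHT groups, was at 267 CPM for *CBX3* and 124 CPM for *BANF1*. Both values lie within the RIS+shHMGA1 ranges and above every RIS sample. What its label means for the difference with the hairpin was not tested. In edgeR without the pair of libraries *LMNB1* was not called (−0.36, 2 SE interval −0.84 to 0.12), and neither were *TMPO* (0.23, −0.04 to 0.50) and *LBR* (−0.01, −0.33 to 0.30). *CBX1* had an adjusted p of 0.0071, but its log2 fold change of −0.38 was under the fold threshold. Leaving out growing replicate 4 alone gave 5 calls, *BANF1* and *CBX3* higher and *LMNA*, *LMNB2* and *CBX5* lower, beside 19% of all genes called. Leaving out RIS replicate 2 alone, which is the library of the pair that this comparison holds, gave 0 calls (*BANF1* 0.71 and *CBX3* 0.77 on the log2 scale), beside 1.05%. *LMNB2* lay at 57.7 to 165 CPM in RIS and at 41.6 to 54.0 CPM in RIS+shHMGA1, so its ranges did not overlap. The share of all genes without overlap was not computed for this comparison. Whether the separate ranges of *CBX3* and *LMNB2* are unusual here thus cannot be told. The log2 fold change of *LMNB2* in edgeR was −0.75 (adjusted p = 0.03) with all samples and −0.43 (adjusted p = 0.011) without the pair, and it was called in neither.

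The interaction asks whether the 4OHT effect differed with the hairpin. None of the 10 genes was called by edgeR or DESeq2, and 1 had an unadjusted p under 0.05. Over all genes DESeq2 called 0.0196% and edgeR 0%, with 1371 genes at an unadjusted p under 0.05. For *CBX3* the difference of effects was 0.71 (2 SE interval −0.05 to 1.48) and for *LMNB1* −1.58 (−3.23 to 0.08). Without the pair of libraries the values were 0.28 (−0.29 to 0.86) for *CBX3* and −0.07 (−0.66 to 0.51) for *LMNB1*, again with no call among the 10, beside 0.00745% of all genes. A difference in the 4OHT effect between cells with and without the hairpin was thus not shown for any of the 10 genes.

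Levels were compared between genes as CPM per kb of the canonical GENCODE transcript, in the hairpin samples. Without 4OHT *LMNA* was the most abundant, at 152 to 212 CPM per kb. *BANF1* (84.4 to 106) and *CBX3* (59.2 to 100) followed with overlapping ranges, then *EMD* (46.5 to 54.0). *TMPO* (21.3 to 32.7) and *LMNB2* (22.9 to 28.2) overlapped each other, and *CBX1* (16.4 to 17.7) lay below them. *LMNB1* (8.57 to 14.3), *CBX5* (6.61 to 9.30) and *LBR* (5.34 to 9.01) came last, and these neighbours overlapped. With 4OHT the order was different. *BANF1* (113 to 223 CPM per kb) and *CBX3* (103 to 172) overlapped each other and lay above *LMNA* (65.0 to 87.4), and *EMD* came next at 37.8 to 47.9. *LMNB2*, *CBX1* and *TMPO* lay between 6.97 and 11.6 with overlapping ranges, *CBX5* (3.10 to 4.06) and *LBR* (1.99 to 3.13) just overlapped, and *LMNB1* was last at 0.451 to 1.21.

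**Figure D3:**
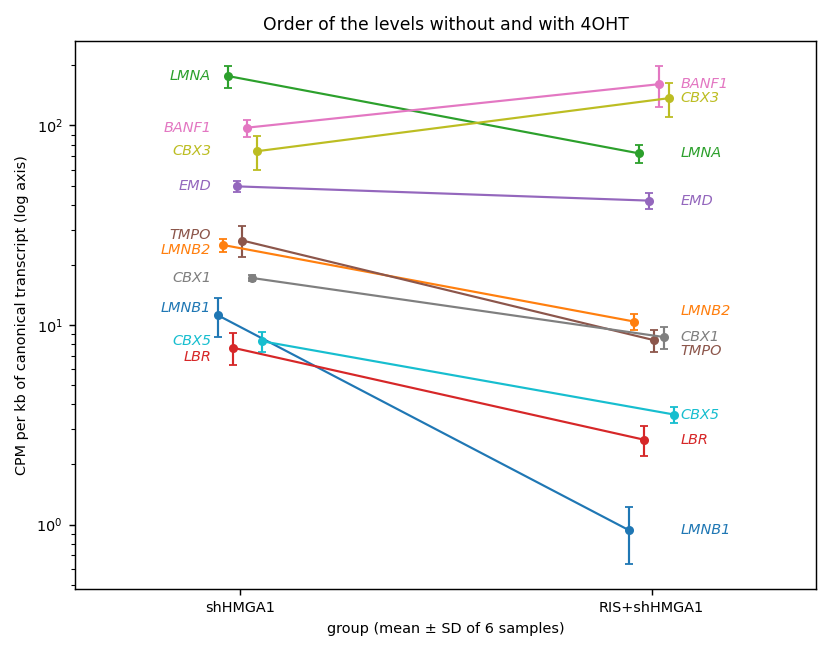
Mean ± SD of CPM per kb of canonical transcript (log axis) of the 10 genes in the 6 shHMGA1 and the 6 RIS+shHMGA1 samples. *LMNA* passes from the top of the order to below *BANF1* and *CBX3*, and *LMNB1* drops to the bottom.

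The makeup of the HP1 reads followed from these changes and is given as a description. *CBX3* took 46.8%, 52.7% and 60.4% (lowest, median, highest) of the reads of the 3 HP1 genes in shHMGA1 and 76.3%, 83.6% and 85.2% in RIS+shHMGA1. In growing samples without replicate 4 its share was 25.2% to 48.6%, and in RIS samples without replicate 2 it was 49.3% to 74.7%. Growing replicate 4 was at 83% and RIS replicate 2 at 28.5%. Shares of reads weigh *CBX5* more, whose canonical transcript has 11546 bases beside 2061 in *CBX3*. Per kb, the *CBX3* share was 69.8% to 79.9% in shHMGA1 and 88.2% to 93.2% in RIS+shHMGA1, and without the pair of libraries 48.1% to 72.6% in growing and 70.6% to 87.9% in RIS samples. There were 1.2 to 2.08 *CBX3* reads per *CBX5* read in shHMGA1 and 4.81 to 8.46 in RIS+shHMGA1. The sum of the 3 genes was 234 to 341 CPM in shHMGA1 and 269 to 415 CPM in RIS+shHMGA1, so the sums overlapped while the shares did not. Among the lamins, *LMNA* had 11.9 to 27.2 reads per *LMNB1* read in shHMGA1 and 65.6 to 171 in RIS+shHMGA1. The lamin sum was 640 to 818 CPM and then 251 to 332 CPM.

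**Figure D4:**
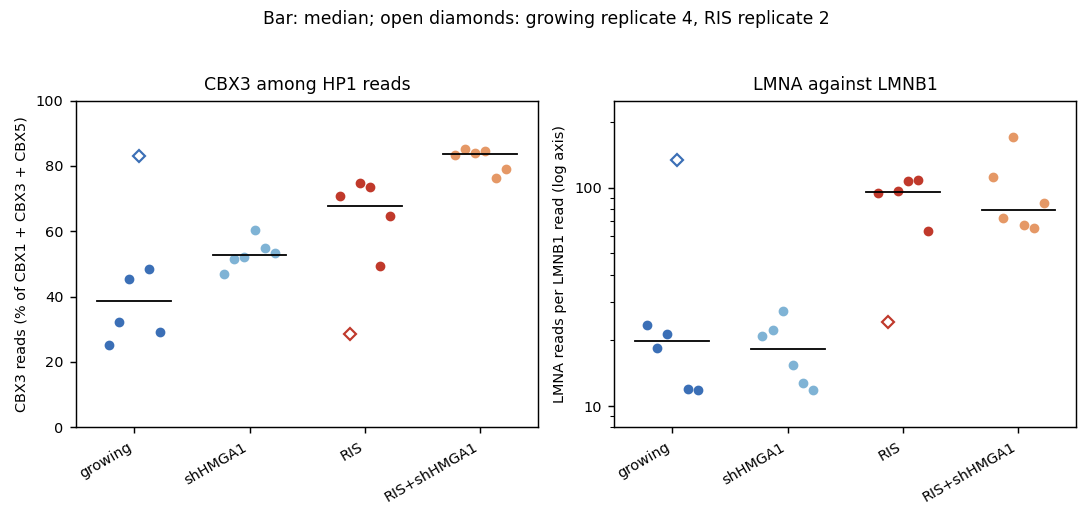
Left, share of *CBX3* among the reads of *CBX1*, *CBX3* and *CBX5* (percent) and right, *LMNA* reads per *LMNB1* read (log axis), in each of the 24 samples by group, with bars at the medians and open diamonds for growing replicate 4 and RIS replicate 2. The *CBX3* share lies between 76.3% and 85.2% in RIS+shHMGA1 samples and between 46.8% and 60.4% in shHMGA1 samples.

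Other genes of the nuclear envelope were read from a list of 24, of which 21 were tested. In RIS+shHMGA1 against shHMGA1, 11 were lower, 1 was higher and 9 were not called, with a median log2 fold change of −0.63, beside 19.5% of all genes lower and 19.6% higher. *SUN2* (−2.10, SE 0.40, adjusted p = 0.00038), *SYNE1* (−1.71, SE 0.41, adjusted p = 0.0016) and *SYNE2* (−1.58, SE 0.43, adjusted p = 0.0036), which build the bridge between the nucleus and the cytoskeleton, were among the 4 lowest, with *NEMP1* (−1.75, SE 0.28, adjusted p = 0.00021), a membrane protein of the nuclear envelope. The gene that was higher was *TMEM97* (0.87, SE 0.25, adjusted p = 0.0047). In RIS against growing, 0 of the 21 were called with all samples, and 8 were lower and 0 higher without the pair of libraries, beside 20.5% and 19.2% of all genes.

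Of 6 genes that process prelamin A, 1 was higher and 1 lower in RIS+shHMGA1 against shHMGA1, and their median log2 fold change was 0.14. These shares are near those of all genes (19.6% higher and 19.5% lower). *FNTA*, a subunit of the enzyme that attaches the farnesyl group, rose by 1.32 (log2, SE 0.32, adjusted p = 0.0017). *ICMT*, which methylates the farnesylated end, fell by 1.09 on the log2 scale (SE 0.23, adjusted p = 7e-04). *ZMPSTE24*, which cleaves prelamin A, had a log2 fold change of 0.20 (adjusted p = 0.21) and was not called. RIS against growing had 0 of the 6 called with all samples, and 2 higher and 1 lower without the pair of libraries, beside 19.2% and 20.5% of all genes.

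HP1 binds methylated lysine 9, and a list of 28 genes held some of the enzymes that set or remove this mark and some partners of HP1. Of the 26 tested, 12 were lower, 0 were higher and 14 were not called in RIS+shHMGA1 against shHMGA1, with a median log2 fold change of −0.51, beside 19.5% of all genes lower. The lowest were *UHRF1* (−2.98, SE 0.52, adjusted p = 0.00024), which reads methylated DNA and histones at replication, *CHAF1B* (−2.93, SE 0.53, adjusted p = 0.00027) and *CHAF1A* (−2.06, SE 0.41, adjusted p = 0.00048), subunits of the histone chaperone of replicating DNA, and *INCENP* (−2.11, SE 0.38, adjusted p = 0.00027), a part of the mitotic Aurora B complex. These 4 genes serve replication or mitosis and do not write the mark. Among the enzymes that write it, *SUV39H1* fell by 1.35 on the log2 scale (SE 0.20, adjusted p = 0.00018). *SETDB2* (−0.78, SE 0.22, adjusted p = 0.0048) and *EHMT1* (−0.72, SE 0.21, adjusted p = 0.0051) were also lower, and *SUV39H2* (−0.07, adjusted p = 0.72) and *SETDB1* (−0.18, adjusted p = 0.083) were not called. In RIS against growing, 0 of the 26 were called with all samples and 9 were lower without the pair of libraries, beside 20.5% of all genes.

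Several of the 10 genes start close to a gene on the opposite strand. *CBX3* starts 367 bases from *HNRNPA2B1*, the gene of an RNA-binding protein. While *CBX3* rose in RIS+shHMGA1 against shHMGA1, *HNRNPA2B1* fell, from 264, 308 and 362 CPM to 141, 151 and 197 CPM, without overlap. Its log2 fold change was −0.94 (SE 0.23, adjusted p = 0.0021), so the pair moved in opposite directions. *BANF1* starts 52 bases from *EIF1AD*, which lay at 23.8 to 33.4 CPM and then at 25.6 to 31.3 CPM (0.01, SE 0.11, adjusted p = 0.91). *CBX5* starts 60 bases from *HNRNPA1* (−0.24, SE 0.18, adjusted p = 0.24) and *CBX1* starts 1879 bases from *SNX11* (0.01, SE 0.11, adjusted p = 0.94), and neither neighbour was called. *HNRNPA1* lay at 15.3 to 28.4 CPM in shHMGA1 and at 14.0 to 25.9 CPM in RIS+shHMGA1. Whether some of its reads were dropped or split was not tested.

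Genes of the cell cycle were lower in the same comparison. Of 22 such genes, 22 were lower in RIS+shHMGA1 against shHMGA1, beside 19.5% of all genes, with a median log2 fold change of −2.45. Their summed level was 1750 to 2510 CPM in shHMGA1 and 455 to 515 CPM in RIS+shHMGA1. It was 1700 to 2250 CPM in growing samples without replicate 4, 426 CPM in growing replicate 4, 365 to 476 CPM in RIS samples without replicate 2 and 1630 CPM in RIS replicate 2. *LMNB1* was high in the same samples as the cell cycle genes, and the part of the cell cycle in its level was not tested. The 9 secretome genes went the other way, from 17000 to 28600 CPM in shHMGA1 to 133000 to 238000 CPM in RIS+shHMGA1. CPM are shares of a library, so a rise in these genes lowers the CPM of others unless the scaling accounts for it. The TMM factors were 0.736 to 0.956 in RIS+shHMGA1 and 1.09 to 1.16 in shHMGA1 samples. This scaling raised the CPM of RIS+shHMGA1 relative to those of shHMGA1. The separate ranges of *BANF1* and *CBX3* hold on that scale, and on plain total counts the ranges of both genes overlap. The cell cycle and secretome lists were chosen with results of these samples known, so their direction is not independent evidence.

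**Figure D5:**
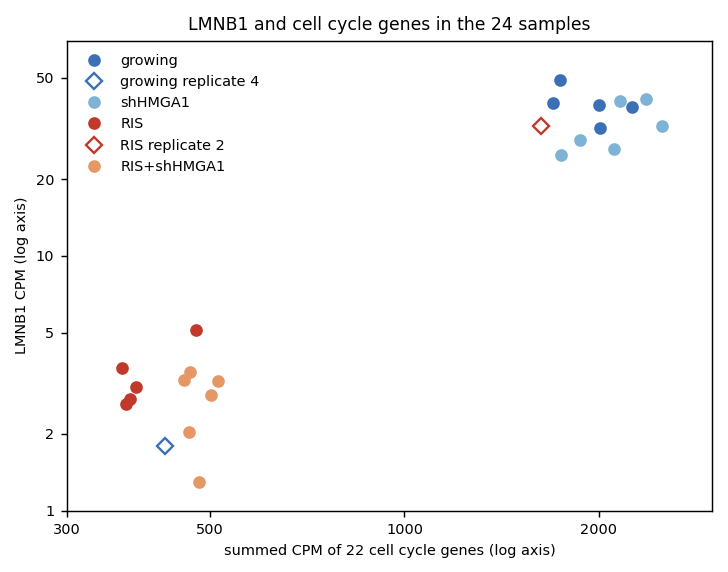
*LMNB1* CPM against the summed CPM of 22 cell cycle genes (both axes log) in the 24 samples, by group, with open diamonds for growing replicate 4 and RIS replicate 2. The samples form a pair of clouds, the upper with cell cycle sums of 1630 CPM or more and the lower with sums of 515 CPM or less, and the diamonds lie in the cloud of the other label.

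By likeness of log2 CPM over the 24 samples, among 7817 genes and as a description only, *LMNB1* was nearest to *DTL* (Pearson r = 0.992), *STIL* (0.991), *SMC4* (0.991), *MYBL2* (0.990) and *P3H2* (0.990). *DTL* is an adaptor of a ubiquitin ligase of S phase, *STIL* builds centrioles, *SMC4* is a condensin subunit and *MYBL2* a cell cycle transcription factor. *CBX5* was nearest to *TRAM2* (0.986), *LRRFIP1* (0.986), *TRIO* (0.986), *FOXN3* (0.984) and *SYNE1* (0.983), of which *SYNE1* was also on the nuclear envelope list. The samples share groups and the pair of libraries, so that high values are common. Without these libraries the r of *LMNB1* with *DTL* was 0.992 and that of *CBX5* with *SYNE1* was 0.979.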

How the data were processed

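Libraries were made with the TruSeq Stranded mRNA kit and sequenced on the HiSeq-2500. The authors mapped reads to hg19 with STAR 2.5.0b, filtered adapters and reads with a mapping quality under 20 with cutadapt 1.10.0, and ran Rsubread for the counting. The deposited values are raw counts for 25702 Entrez identifiers per sample, of which 23696 had a RefSeq symbol. The annotation, the strand setting and the version of Rsubread are not given in the sources used here.

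Groups and replicate numbers were taken from the sample titles. The labels call the replicates biological, and nothing more is said of how they were separated, so p-values measure the spread between these samples. Group differences were tested in R 4.3.3 by edgeR 4.0.16 (filterByExpr by group, TMM, quasi-likelihood fit of 4 group means over all 24 samples, Benjamini-Hochberg adjustment over 13356 genes, or 13416 without the pair of libraries). Genes were called at an FDR below 0.01 with a log2 fold change beyond ±0.58, as in the study's methods. CPM are on TMM library sizes, log2 CPM has a prior count of 2, and SE is the log2 fold change divided by the square root of F. Every sample was compared as labelled, and growing replicate 4 and RIS replicate 2 were left out as a second setting. No pair of replicates had counts as alike as sampling noise gives. Scripts were tested on simulated counts.

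The 10 genes, the gene lists, the settings and the pair of libraries to leave out were chosen with earlier results of these data known. Named genes are the 10, the up to 4 largest changes in each direction of each list past the thresholds in RIS+shHMGA1 against shHMGA1, the 5 genes most like *LMNB1* and *CBX5* (logCPM of at least 4), the nearest opposite-strand gene starting within 2 kb, and *HMGA1*. *SUV39H1*, *SUV39H2*, *SETDB1*, *SETDB2*, *EHMT1* and *ZMPSTE24* were named after their values were seen. Alternatives were RLE size factors, DESeq2 1.42.0, other low-count filters, the replicate number as a block, the samples of the contrast only, an FDR of 0.05 without fold threshold, limma 3.58.1 voom with sample quality weights, and fits without each replicate number or either library. Gene positions are from GENCODE on GRCh37, and promoters from RefSeq on GRCh38.p14.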

Additional observations from a re-analysis of the deposited data

Results flagged for a closer look

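Each of the 10 genes was examined in each of the 4 groups for a sample far from the other 5, as the gap to its nearest neighbour divided by the range of log2 CPM (Dixon's test at its 95% critical value). Of 40 such tests 13 passed, where chance gives about 1 in 20, or 2. Of those that passed, 6 were low values of replicate 4 in growing samples. The ratio was 0.866 for *LMNB1*, 0.813 for *CBX1*, 0.747 for *CBX5*, 0.71 for *LBR*, 0.671 for *TMPO* and 0.643 for *LMNB2*. Another 6 that passed were high values of replicate 2 in RIS samples, with 0.74 for *LMNB1*, 0.712 for *LBR*, 0.709 for *TMPO*, 0.685 for *CBX5*, 0.634 for *LMNA* and 0.631 for *LMNB2*. These 12 belong to the pair of libraries whose values over all genes lay nearer to another group. The other was *LMNA* in RIS+shHMGA1, where replicate 6 was highest at 278 CPM, with a ratio of 0.631.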

How the results depend on the processing

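In RIS+shHMGA1 against shHMGA1 and against growing, 9 of the 10 genes were called with all samples, beside 39.1% and 45.9% of all genes. Other tools, filters and thresholds gave 8 to 10, beside 25.9% to 63.3% of all genes against shHMGA1 and 30.9% to 69.1% against growing. Leaving out each replicate number gave 6 to 9 calls against shHMGA1 (22.7% to 41.1% of all genes) and 7 to 9 against growing (22.9% to 54.1%). *BANF1* and *CBX3* were the genes lost most often. In RIS against growing, 0 of 10 were called with all samples, 3 with DESeq2 (5.72% of all genes called), 4 at an FDR of 0.05 without fold threshold (14.8%) and 9 with voom sample weights (47.3%). With replicate numbers or libraries left out the count was 0 to 7, beside 0% to 39.7% of all genes. It was 7 without growing replicate 4, without RIS replicate 2 or without both. In shHMGA1 against growing the count was 0, and 1 (*CBX5*) with voom weights (6.33% of all genes). It was 0 to 1 with replicate numbers or libraries left out (0.0374% to 2.59%). In RIS+shHMGA1 against RIS it was 0, and 2 with DESeq2 (12.2% of all genes) or voom weights (13.9%), and 7 at an FDR of 0.05 (35.6%). With replicate numbers or libraries left out it was 0 to 5 (0.105% to 19%), the 5 being without growing replicate 4. The interaction had 0 under each alternative, where no smaller set of groups exists to fit alone. Of 1130 refitted values of single genes, 1018 kept their side of the thresholds, 92 passed them where the value reported did not, 20 the reverse, and 0 called values changed sign. The cause of these changes was not tested.

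With the replicate number as a block (replicate block), 0 of the 10 genes were called for RIS against growing (0.00749% of all genes). There were 9 each when RIS+shHMGA1 was set against shHMGA1 (42.4%) or growing (48.3%), and 2 (*BANF1* and *CBX3*) for RIS+shHMGA1 against RIS (12.3%). A pair of settings was added after seeing the data, the block and DESeq2 without the pair of libraries. Each gave 7 calls for RIS against growing (39.1% and 34.2% of all genes) and 2 for RIS+shHMGA1 against RIS (14.4% and 14%). In shHMGA1 against growing without the pair, each lost the call of *CBX5*. Same-numbered samples of different groups deviated together with a mean correlation of 0.175 (36 pairs, −0.594 to 0.828, 24 over 0.1), beside −0.05 for different numbers (57 of 180 over 0.1). Of 24 samples, 10 correlated best with a sample of their own number. Samples of the same number were thus more alike on average, but the main fit did not take the numbers as pairs. With the block, RIS+shHMGA1 against RIS had 1637 genes called in all, beside 341 without it. What same-numbered samples share was not tested. Over all genes DESeq2 called 826 in RIS against growing (edgeR 0), 97 in shHMGA1 against growing (edgeR 36) and 1567 in RIS+shHMGA1 against RIS (edgeR 341). Counts of 14 or more per sample stand behind each value of the 10 genes, and depth limits *LMNB1* with 4OHT most.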
